A study of Homo sapiens with 3 samples.

Results

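The genes described here make, bind or build on hyaluronan: the synthases HAS2 and HAS3, the receptor CD44, the lecticans NCAN (neurocan), VCAN (versican), BCAN (brevican) and ACAN (aggrecan), the link protein HAPLN1, and the tenascins TNC and TNR. They were chosen by name, with earlier results of these data known, and every probe set annotated with 1 of these symbols and no other was taken, which gave 41 probe sets for 10 of the 19775 genes on the arrays. Their values are therefore given as a description and carry no test. Total RNA from cultures of H9, an established line of human embryonic stem cells, was hybridised to 3 Affymetrix arrays, 1 per group. The neuroepithelial array (NE) came from cells at day 17, an early neural progenitor stage that received no morphogen. The RA array came from astrocytes at day 210 that had been exposed to retinoic acid, and the FGF8 array from astrocytes at day 210 that had been exposed to fibroblast growth factor 8, in both cases from day 10 to day 21. All cultures began with embryoid bodies, formed after the stem cells were taken off mouse embryonic fibroblasts. The NE array differs from both astrocyte arrays in day, cell stage and morphogen together, and these cannot be told apart. Below, "with RA" and "with FGF8" name the array and not a response to the morphogen. Each group is 1 array of 1 cell line, which leaves every difference below without replicates, and the small number of arrays limits their precision.

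Hyaluronan is a long sugar polymer that HAS enzymes spin out at the plasma membrane, and in the brain it forms the backbone of the extracellular matrix. Lecticans bind it at one end through a link module and bind tenascins at the other, link proteins such as HAPLN1 lock the lectican onto the polymer, and CD44 ties the polymer to the cell surface. Versican and HAPLN1 are prominent in embryonic matrix, neurocan and brevican in brain matrix made largely by glia, aggrecan in cartilage and in the nets around some neurons, tenascin-C in developing and reactive tissue, and tenascin-R with oligodendrocytes and neurons.

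Reference sequence just upstream of the start is shown for 4 members, CD44 and BCAN, which were higher on both astrocyte arrays, HAS3, which was higher on the RA array alone by its main probe set, and HAPLN1, which was higher on the NE array. Of the 10 members 7 were found in the RefSeq promoter table (GRCh38.p14); HAS2, NCAN and TNR were not. Each run is the 250 bases before the start that the table lists, written 5′ to 3′ on the gene's strand, with matches to the motifs searched in capitals: CD44 at chr11:35138921-35139170 (plus strand), BCAN at chr1:156641867-156642116 (plus), HAS3 at chr16:69107290-69107539 (plus) and HAPLN1 at chr5:83720856-83721105 (minus).
CD44: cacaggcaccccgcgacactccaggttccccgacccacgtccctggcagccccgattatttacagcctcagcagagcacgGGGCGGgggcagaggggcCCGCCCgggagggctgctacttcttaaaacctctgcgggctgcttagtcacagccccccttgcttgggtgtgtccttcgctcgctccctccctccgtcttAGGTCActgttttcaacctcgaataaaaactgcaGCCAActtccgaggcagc
BCAN: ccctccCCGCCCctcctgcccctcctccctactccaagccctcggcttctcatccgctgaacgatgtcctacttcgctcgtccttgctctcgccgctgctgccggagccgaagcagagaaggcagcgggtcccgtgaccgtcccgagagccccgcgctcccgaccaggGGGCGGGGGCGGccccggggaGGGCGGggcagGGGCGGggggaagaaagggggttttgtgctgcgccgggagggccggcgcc
HAS3: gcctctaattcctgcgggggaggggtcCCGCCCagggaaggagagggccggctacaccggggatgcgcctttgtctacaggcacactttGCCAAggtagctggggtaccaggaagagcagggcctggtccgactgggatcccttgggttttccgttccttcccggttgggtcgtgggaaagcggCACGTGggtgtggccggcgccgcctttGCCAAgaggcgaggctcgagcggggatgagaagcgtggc
HAPLN1: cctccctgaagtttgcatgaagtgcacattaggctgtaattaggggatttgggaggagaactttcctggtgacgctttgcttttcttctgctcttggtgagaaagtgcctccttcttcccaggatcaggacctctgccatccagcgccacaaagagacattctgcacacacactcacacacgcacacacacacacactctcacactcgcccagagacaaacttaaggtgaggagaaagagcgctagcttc

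The motifs, searched on both strands, were the TATA box (TATAAA), the CCAAT box (CCAAT), the SP1 GC box (GGGCGG), the nuclear receptor half-site (AGGTCA), the AP-1 site (TGANTCA), the STAT site (TTCNNNGAA), the NFI half-site (TTGGC, which can overlap a CCAAT box) and the E-box (CACGTG). The CD44 stretch held 2 GC boxes, 1 nuclear receptor half-site and 1 NFI half-site. BCAN had 5 GC boxes and no other match. In the HAS3 stretch there were 1 GC box, 2 NFI half-sites and 1 E-box. No listed motif occurred in the HAPLN1 stretch, which says only that these letters are not in this window. Over the same window in all 35116 promoters of the table, a GC box occurred in 42.6%, an NFI half-site in 40.8%, a nuclear receptor half-site in 12.1% and an E-box in 6.34%. GC content was 74.0% for BCAN, 66.0% for HAS3, 62.4% for CD44 and 50.8% for HAPLN1, against a median of 58.0% over the table. A match is a description of letters and was not measured as a binding site.

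Signals are given after quantile normalization of the 3 arrays, and the floor, the median over the non-control probe sets, was a signal of 26.4. Where one of the arrays compared lay at the floor, the difference is only a lower bound ("at least"). Of the 41 probe sets 36 lay above the floor on at least 1 array and 16 on all 3. Astrocyte markers were at least 2-fold higher than NE for 6 of 8 on the RA array and 5 of 8 on the FGF8 array, with 0 lower. GFAP, AQP4 and S100B lay at the floor on the NE array and above it on both astrocyte arrays. SLC1A3, SLC1A2, ALDH1L1, GJA1 and FGFR3 were above the floor on all 3 arrays. ALDH1L1 and GJA1 stayed within 2-fold of NE on both astrocyte arrays, and FGFR3 on the FGF8 array. Of 8 NE markers, 1 was at least 2-fold higher and 6 lower than NE on the RA array, and 0 higher and 5 lower on the FGF8 array. LIN28A and LIN28B lay at the floor on both astrocyte arrays. By their main probe sets (defined below), NES was 2.06-fold higher with RA, and SOX2 stayed within 2-fold of NE on both. A dimmer NES probe set gave -0.55 on the log2 scale for RA minus NE. Another SOX2 probe set was past 2-fold lower than NE, at -1.15 for RA and -2.35 for FGF8. The further SOX2 probe sets compared stayed within 2-fold, at -0.50 and 0.96 for RA and -0.49 and 0.42 for FGF8. The control probe sets that follow were left out of the normalization, and their deposited values are used. The ratio of 3′ to 5′ signal for ACTB was 1.33 on the NE array, 6.67 on the RA array and 6.63 on the FGF8 array. For GAPDH it was 0.984, 1.79 and 1.65. Hybridisation spike-ins were 2.62-fold brighter on the RA array than on the NE array, 2.40-fold brighter on RA than on FGF8, and 1.09-fold brighter on FGF8 than on NE. The part of these in the differences below was not tested. In bulk RNA, more cells of a type and more RNA per cell cannot be told apart.

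By the main probe set of each gene (the one with the highest mean log2 signal, leaving out the cross-hybridising _x_at type where another exists), HAS2, HAS3, CD44, BCAN and TNC were at least 2-fold higher on the RA array than on the NE array, and HAPLN1 was lower. These are 5 higher and 1 lower of 9 members compared, beside 18.1% of all compared genes higher and 14.6% lower in that comparison. On the FGF8 array HAS2, CD44, NCAN, BCAN and TNC were higher than on the NE array, and HAS3, VCAN and HAPLN1 were lower. These are 5 higher and 3 lower of 9, beside 12.8% of genes higher and 10.2% lower. Between the astrocyte arrays HAS3 was higher with RA, NCAN was higher with FGF8, and the other 6 of 8 members compared lay within 2-fold, beside 9.69% of genes higher and 7.86% lower with RA. The median log2 difference of the members was 2.44 for RA minus NE, where all genes had 0.07, 2.81 for FGF8 minus NE (all genes 0.05) and 0.14 for RA minus FGF8 (all genes 0.01). The members were picked with these values known, and both astrocyte comparisons share the NE array, so nothing is read from these counts beyond the genes they name. With array medians set equal, the medians of all genes moved to 0.35 for RA minus NE and 0.42 for FGF8 minus NE. The members then split into 6 higher and 1 lower for RA and 5 higher and 2 lower for FGF8, beside 25.4% of genes higher and 10.5% lower for RA and 21.9% and 7.02% for FGF8.

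**Figure D1:**
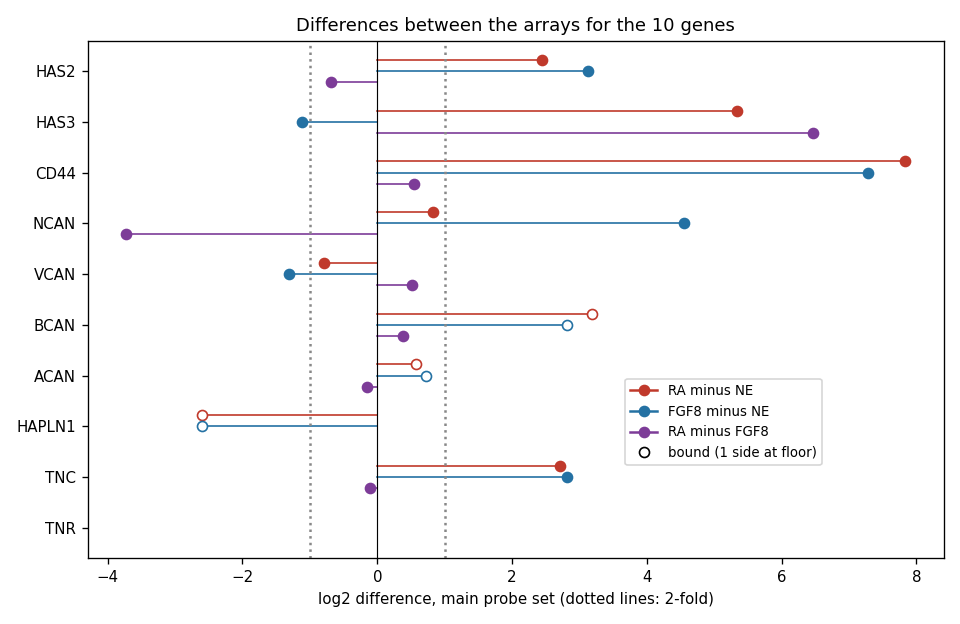
Log2 difference of the main probe set of each of the 10 genes (horizontal axis) for RA minus NE, FGF8 minus NE and RA minus FGF8; open circles are bounds with 1 array at the floor, dotted lines mark 2-fold. CD44 has the largest differences from NE, at 7.83 and 7.28, HAS3 and NCAN stand out between the astrocyte arrays at 6.46 and -3.72, and TNR has no value because it lay at the floor on all 3 arrays.

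Of the synthases, HAS2 makes high-molecular-weight hyaluronan and is the main enzyme of the embryo. Its main probe set (230372_at) read 52.1 on the NE array, 283 on the RA array and 455 on the FGF8 array. It was thus lowest in NE and highest with FGF8, 5.44-fold and 8.73-fold above NE. A further HAS2 probe set (206432_at) kept that order at 57.6, 111 and 179, with smaller differences of 1.92-fold and 3.11-fold. RA and FGF8 differed by -0.68 and -0.69 on the log2 scale in these probe sets, below 2-fold.

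HAS3, the synthase that makes shorter hyaluronan chains, had the most divided pattern of the members. Probe set 223541_at read 58.7 on the NE array, 2375 on the RA array and 27.0 on the FGF8 array, the last just above the floor. It was high on the RA array alone. RA exceeded NE 40.4-fold and FGF8 88.0-fold, the second highest of 12958 genes compared between the astrocyte arrays, at rank 2. FGF8 was 2.18-fold below NE, a difference close to the floor that became a bound of at least 1.71-fold with the mean of both probe sets, which lay at the floor on the FGF8 array. The other HAS3 probe set (1552980_at) did not follow: it read 34.6 on the NE array and lay at the floor on both astrocyte arrays, at least 1.31-fold below NE on each. The RA signal of HAS3 therefore rests on 1 probe set. With the mean of both, RA minus FGF8 was at least 2.57, a bound, and RA minus NE 1.80 instead of 5.34.

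CD44 is the main hyaluronan receptor and marks astrocyte precursors and some reactive astrocytes. Its main probe set (212063_at) read 44.3 on the NE array, 10076 on the RA array and 6914 on the FGF8 array. The NE value lay slightly above the floor and both astrocyte values far above it, 227-fold and 156-fold above NE, rank 4 of 13339 genes for RA and rank 2 of 13004 for FGF8. The astrocyte arrays differed by 0.54 on the log2 scale, or 1.46-fold.

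CD44 has 13 probe sets, the most of any member. Of 11 compared between RA and NE, 8 were at least 2-fold higher on the RA array, by 11-fold to 227-fold, 3 were within 2-fold, and 0 were below NE. For FGF8, 9 of 11 were at least 2-fold higher, by 2.29-fold to 156-fold, and again 0 were below NE. Most of these are bounds, since 11 of the 13 probe sets were at the floor on the NE array: 204489_s_at, for example, had at least 86.5-fold for RA and at least 57.6-fold for FGF8, and 210916_s_at at least 14.1-fold and at least 11.4-fold. Between RA and FGF8, 10 of 12 probe sets were higher with RA, and none of the 12 reached 2-fold, with log2 differences from -0.61 to 0.94. Probe set 234418_x_at stayed at the floor on all 3 arrays, and 216056_at and 234411_x_at passed it on 1 array each. The mean over all 13 lay at the floor on the NE array, so that its log2 differences are bounds of at least 2.88 for RA and at least 2.62 for FGF8.

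**Figure D2:**
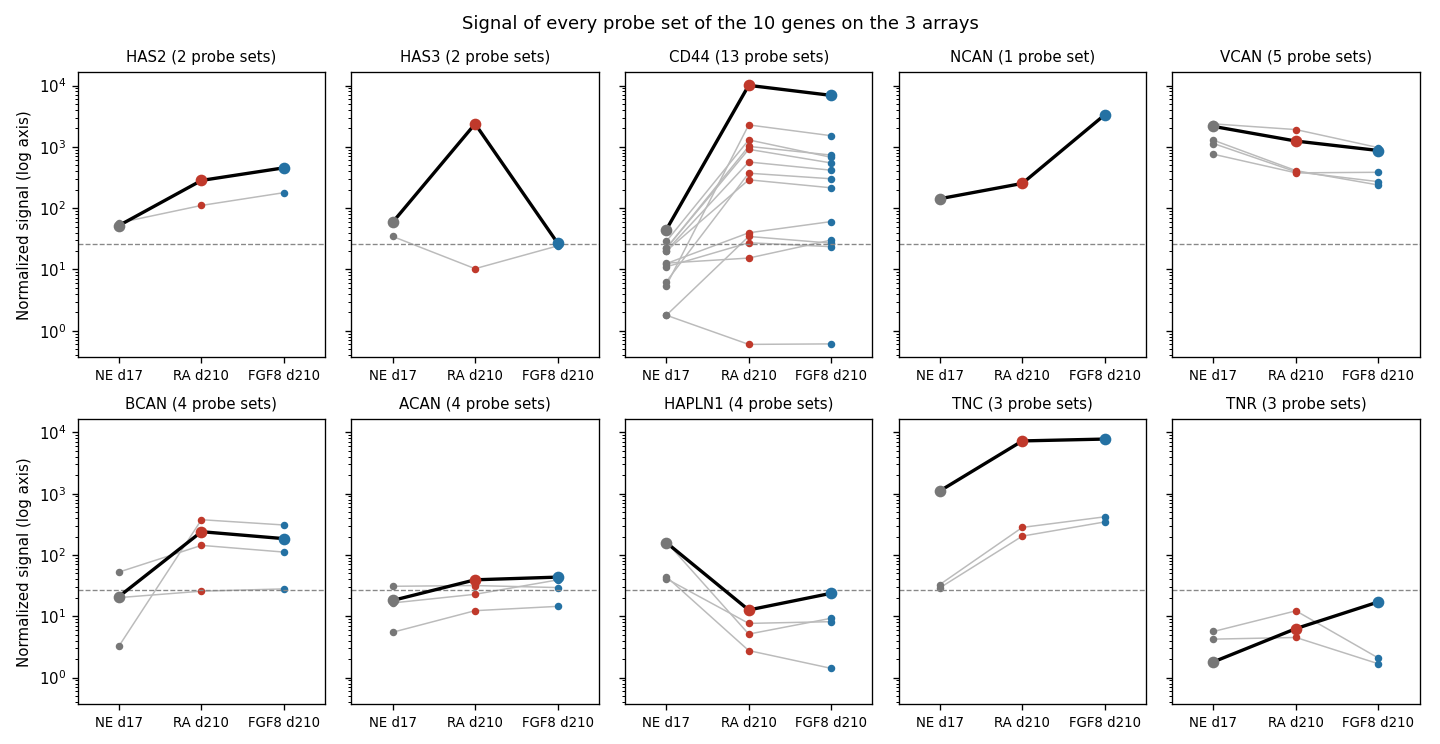
Normalized signal (log axis) of all 41 probe sets of the 10 genes on the NE array (day 17), the RA array and the FGF8 array (day 210), 1 point per array; black lines join the main probe set, grey lines the others, and the dashed line is the floor of 26.4. The CD44 main probe set climbs from 44.3 to 10076 and 6914, HAS3 peaks at 2375 on the RA array in 1 of 2 probe sets, and NCAN reaches 3340 on the FGF8 array.

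Among the lecticans, which link hyaluronan to tenascins, the 4 genes had 4 different patterns. NCAN, a brain proteoglycan that inhibits neurite growth, had a single probe set (205143_at) that read 143 on the NE array, 253 on the RA array and 3340 on the FGF8 array. FGF8 stood apart from the other arrays, 23.4-fold above NE and 13.2-fold above RA, rank 43 from the lowest of 12958 genes for RA minus FGF8. RA was 1.78-fold above NE, and 2.20-fold with array medians set equal.

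BCAN, another proteoglycan confined largely to the nervous system, was at the floor on the NE array in its main probe set (221623_at) and read 240 on the RA array and 185 on the FGF8 array. It was above NE by at least 3.18 and at least 2.81 on the log2 scale (at least 9.09-fold for RA), with the astrocyte arrays 1.30-fold apart. Probe set 219107_at gave at least 14.3-fold and at least 11.7-fold, and 91920_at, measured on all 3 arrays at 52.6, 143 and 111, gave 2.73-fold and 2.12-fold. The fourth, 242843_at, stayed within 2-fold or at the floor. With the floor at the 70th percentile, the FGF8 bound of BCAN was 1.93-fold.

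VCAN, the lectican of embryonic matrix, was the only lectican lower on both astrocyte arrays in every probe set. The main probe set (204620_s_at) read 2156 on the NE array, 1243 on the RA array and 872 on the FGF8 array. NE was highest, and RA and FGF8 lay 1.73-fold and 2.47-fold below it. Over the 5 VCAN probe sets, RA minus NE ran from -1.65 to -0.31 on the log2 scale, with 3 at least 2-fold lower, and FGF8 minus NE from -2.43 to -0.98, with 4 at least 2-fold lower. The largest differences were in 215646_s_at, at 3.13-fold and 5.38-fold, and the smallest for RA in 221731_x_at, at 1.24-fold. With array medians set equal, the main probe set differed by 1.66-fold for FGF8, below 2-fold.

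ACAN, the cartilage aggrecan, stayed near the floor: its main probe set (207692_s_at) was at the floor on the NE array and read 39.3 on the RA array and 43.5 on the FGF8 array. These are bounds of at least 1.49-fold and at least 1.65-fold, and the lower floor made them 2.17-fold and 2.40-fold. The probe set 217161_x_at, above the floor on all 3 arrays, read 30.8, 31.7 and 29.4, so the NE, RA and FGF8 arrays were nearly level there.

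HAPLN1, the link protein that fastens lecticans to hyaluronan, was above the floor on the NE array in 4 of 4 probe sets and at the floor on both astrocyte arrays in all of them. The main probe set (230204_at) read 160 on the NE array, and 205523_at read 164. The astrocyte arrays were at least 6.05-fold and at least 6.22-fold lower in these, and at least 1.56-fold and at least 1.68-fold lower in 205524_s_at and 230895_at. RA and FGF8 could not be compared, since both were at the floor. With the floor at the 70th percentile, the bound of the main probe set was 1.67-fold on each array.

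TNC, a hexameric glycoprotein that binds lecticans and integrins, was well above the floor already in NE. The main probe set (201645_at) read 1107 on the NE array, 7248 on the RA array and 7773 on the FGF8 array. Both astrocyte arrays were above NE, by 6.54-fold and 7.02-fold, and nearly level with each other. The further probe sets 216005_at and 237169_at were higher with FGF8 than with RA by 1.70-fold and 1.49-fold, and above NE by 6.96-fold and 8.54-fold for RA and 11.9-fold and 12.7-fold for FGF8. The sign of the small RA minus FGF8 difference of TNC depended on the scaling, from -0.48 to 0.23 on the log2 scale over the alternatives. TNR, the trimeric tenascin of perineuronal nets, lay at the floor on all 3 arrays in all 3 of its probe sets.

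The order of the arrays thus differed by gene in the main probe sets. It was RA, FGF8, NE for CD44 and BCAN, FGF8, RA, NE for HAS2, NCAN and TNC, RA, NE, FGF8 for HAS3, and NE, RA, FGF8 for VCAN. Neighbours within 2-fold in that order were RA and FGF8 for CD44, BCAN, HAS2, TNC and VCAN, NE and RA for NCAN and VCAN. With 1 array per group no spread exists against which these orders could be set. The plot of the alternatives gives the range of each difference over other ways of processing.

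**Figure D3:**
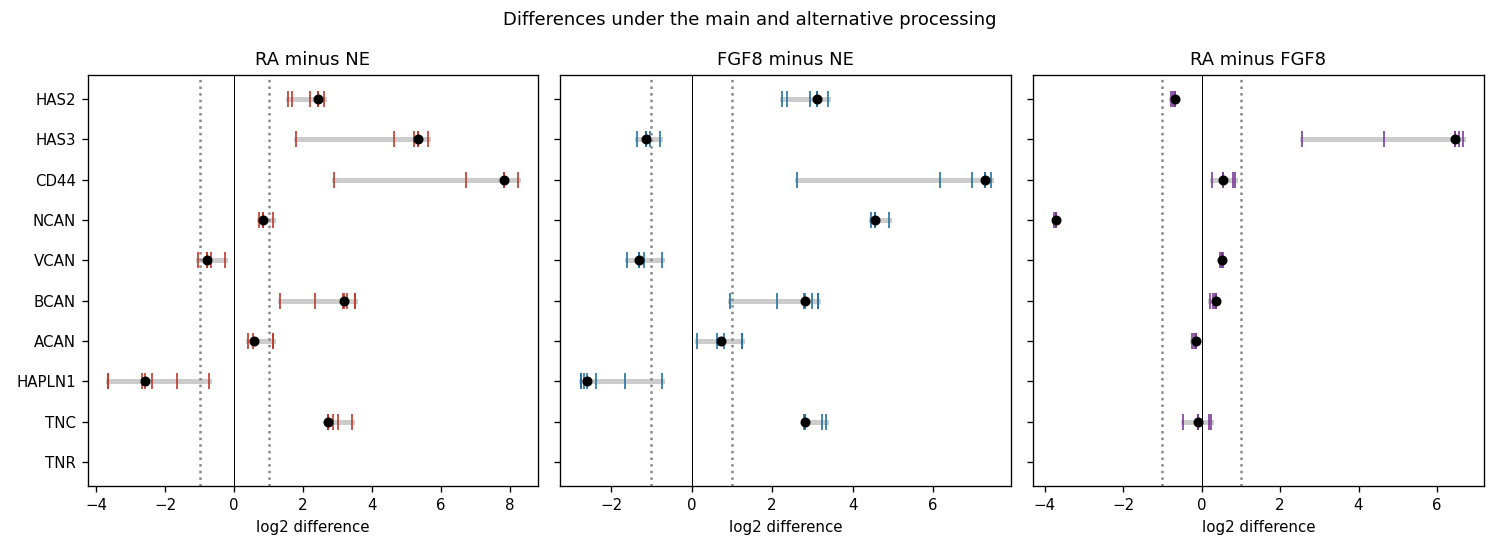
Log2 difference of each of the 10 genes (horizontal axis) in the 3 comparisons; black points are the values reported, coloured ticks the alternatives (other scalings, floors and probe set choices), grey bars their range, and dotted lines 2-fold. NCAN for RA minus FGF8 stays between -3.77 and -3.72. Its 1 probe set lies above every floor tried, so only the scalings could move that value. HAS3 ranges from 2.57 to 6.67 for RA minus FGF8, and CD44 for RA minus NE from 2.88 to 8.23. The lowest values of HAS3 and CD44 are bounds from the mean of all probe sets.

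Of 89 further genes that make, bind or cut this matrix, 85 had a probe set of their own; HAS1, HYAL1, ESRP2 and ITGB6 did not. Of 64 compared between RA and NE, 21 were at least 2-fold higher and 15 lower (32.8% and 23.4%), of 60 between FGF8 and NE 11 and 16 (18.3% and 26.7%), and of 58 between RA and FGF8 9 and 7 (15.5% and 12.1%). Over all compared genes the shares higher and lower were 18.1% and 14.6%, 12.8% and 10.2%, and 9.69% and 7.86% in these comparisons, and the medians 0.07, 0.05 and 0.01. No list is called particular from its counts or median. The lists were written with earlier results of these data known.

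Genes of chondroitin sulfate synthesis, which build the sugar side chains of lecticans, had 9 higher and 2 lower of 20 compared for RA, with a median log2 difference of 0.45, and 7 higher and 2 lower of 19 for FGF8, with a median of 0.67. CSGALNACT1, which adds the first chain sugar of the chondroitin type, was at the floor on the NE array and read 1314 on the RA array and 196 on the FGF8 array. That is at least 49.8-fold and at least 7.45-fold above NE, and 6.69-fold higher with RA than with FGF8. It rests on 1 of 2 probe sets, the other being at the floor on all 3 arrays. The sulfotransferase CHST11 was 6.94-fold higher with RA and 8.01-fold with FGF8, the sulfotransferase UST 3.98-fold and 4.29-fold, and the polymerizing factor CHPF 4.46-fold and 2.70-fold. Further CHST11 probe sets gave less, with log2 differences of 1.23 and 1.18 for RA and 1.10 and 1.95 for FGF8. The other UST probe set stayed within 2-fold, with log2 differences of 0.88 and 0.80. CHST3, a chondroitin 6-sulfotransferase, was 2.77-fold higher with RA and 3.28-fold with FGF8. CHST15, which makes a disulfated unit, was at least 6.80-fold lower with RA and 2.65-fold lower with FGF8, and the epimerase DSE 3.35-fold and 3.45-fold lower. Only 1 of 2 CHST15 probe sets and 1 of 4 DSE probe sets passed the floor on any array.

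Among the lectican-cleaving proteases and their inhibitor TIMP3, 2 were higher and 3 lower of 6 compared for RA (median -1.21), and 0 were higher and 5 lower of 6 for FGF8 (median -1.53). ADAMTS15, a metalloprotease that cuts versican and aggrecan, read 89.1 on the NE array, 1773 on the RA array and 31.4 on the FGF8 array. Like HAS3 it was high on the RA array alone, 19.9-fold above NE and 56.4-fold above FGF8, in 1 of 2 probe sets, the other being at the floor on all 3 arrays. ADAMTS5, an aggrecanase, was 2.51-fold above NE with RA and at least 2.94-fold below it with FGF8, and at least 7.38-fold apart between the astrocyte arrays. ADAMTS1 was 3.28-fold and 5.58-fold below NE, ADAMTS9 at least 5.10-fold and 2.47-fold, and TIMP3 at least 4.44-fold on each. By its main probe set ADAMTS9 was also at least 2.07-fold lower with RA than with FGF8. Dimmer ADAMTS9 probe sets gave 0.16 and -0.0089 on the log2 scale there. Against NE, the other ADAMTS9 probe sets compared ran from -1.44 to -0.25 for RA and from -1.44 to 0.0089 for FGF8.

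**Figure D4:**
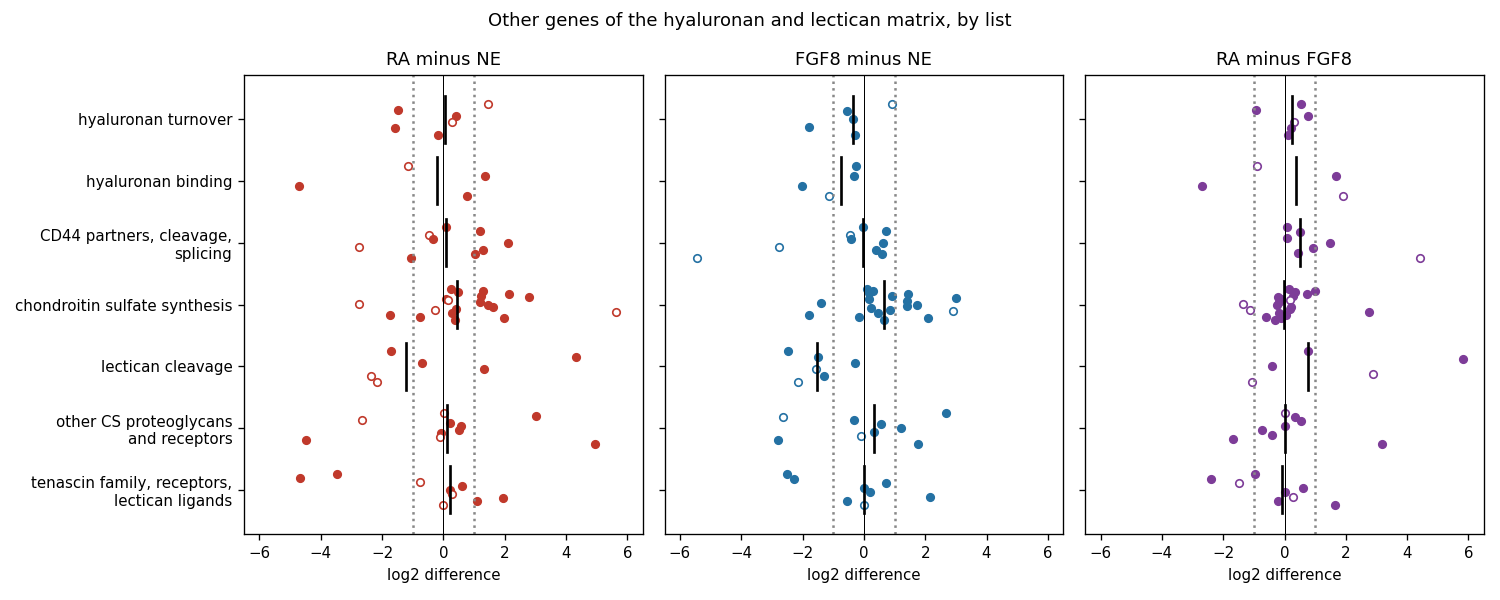
Log2 differences of the other matrix genes (1 circle per gene, horizontal axis) in 7 lists and 3 comparisons; open circles are bounds, black bars list medians and dotted lines 2-fold. ADAMTS15 at 5.82 is the highest point for RA minus FGF8, CSGALNACT1 at 5.64 the highest for RA minus NE, and SPP1 at -5.46 the lowest for FGF8 minus NE.

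Of the other chondroitin sulfate proteoglycans and their receptors, 2 were higher and 2 lower of 10 compared for RA (median 0.11), and 3 and 2 of 9 for FGF8 (median 0.34). CSPG5, or neuroglycan C, was 8.08-fold higher with RA and 6.43-fold with FGF8. SPOCK2 was 30.8-fold and 3.39-fold higher and SPOCK1, from the same testican family, 22.3-fold and 6.92-fold lower, while DCN, decorin, was at least 6.25-fold lower on each. The other SPOCK2 probe set gave less, with log2 differences from NE of 1.09 for RA and 0.53 for FGF8. A further DCN probe set stayed within 2-fold, at -0.80 for RA and -0.95 for FGF8. PTPRZ1, a receptor phosphatase that carries chondroitin sulfate and binds tenascins, was 2.34-fold higher with FGF8. Between the astrocyte arrays SPOCK2 was 9.08-fold higher with RA by its main probe set but within 2-fold by the other, at 0.56 on the log2 scale. SPOCK1 was 3.22-fold lower with RA.

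In the list of hyaluronan turnover, 1 gene was higher and 2 lower of 6 compared for RA (median 0.06), and 0 were higher and 1 lower of 5 for FGF8 (median -0.36, and 0.12 with array medians set equal). UGDH, which makes the glucuronic acid precursor of hyaluronan, was 2.97-fold lower with RA and 3.45-fold with FGF8. CEMIP2, described as a hyaluronan-degrading surface protein, was 2.80-fold lower with RA, and CEMIP, a hyaluronan-binding depolymerization factor, at least 2.74-fold higher. Of 15 further hyaluronan-binding genes only 4 could be compared in each comparison, and 11 lay at the floor: 1 was higher and 2 lower for RA (median -0.19), 0 and 2 for FGF8 (median -0.73). HMMR, a hyaluronan-binding protein that also works on the mitotic spindle, read 1429 on the NE array, 55.1 on the RA array and 355 on the FGF8 array, 25.9-fold and 4.03-fold below NE. HAPLN4, the brain link protein, was 2.59-fold higher with RA, HAPLN3 at least 2.22-fold lower with RA, and the receptor LAYN at least 2.21-fold lower with FGF8.

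CD44 partners split, with 4 higher and 2 lower of 9 for RA (median 0.07) and 0 higher and 2 lower of 9 for FGF8 (median -0.01, 0.51 with array medians set equal and 0.05 from the deposited values). MMP14, which cleaves CD44, was 4.31-fold higher with RA, and MSN, moesin, which anchors CD44 to actin, 2.45-fold. RDX (radixin) and the sheddase ADAM17 were 2.04-fold and 2.31-fold higher on their main probe sets, but other probe sets differed. For RDX they gave log2 differences of -0.32, 0.25 and 3.74, and for ADAM17 -0.26. EZR (ezrin) stayed within 2-fold of NE on its main probe set, at -0.34 for RA and -0.41 for FGF8. Its further probe sets compared were past 2-fold lower, from -3.07 to -1.42 for RA and from -3.02 to -1.69 for FGF8. SPP1, osteopontin, a secreted CD44 ligand, read 1157 on the NE array and 561 on the RA array and lay at the floor on the FGF8 array. It was 2.06-fold lower with RA, at least 43.9-fold lower with FGF8 and at least 21.3-fold apart between the astrocyte arrays. Only 1 of 2 SPP1 probe sets passed the floor on any array. MMP9 was at least 6.76-fold lower on each astrocyte array.

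Tenascin receptors and lectican ligands had 2 higher and 2 lower of 9 for RA (median 0.21, and -0.03 with the deposited values) and 1 higher and 2 lower of 8 for FGF8 (median -0.0025, and 0.27 with array medians set equal). The integrin ITGB8 was 3.86-fold and 4.43-fold higher by its brightest probe set, while a dim one gave -0.56 and 0.58 on the log2 scale. FN1, fibronectin, was 25.7-fold and 4.84-fold lower, and FBLN1, a fibulin that binds lecticans, 11-fold and 5.65-fold lower. The proteoglycan SDC4 was 2.15-fold higher with RA.

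Markers of other cell types moved with some of these values. Fibroblast or mesenchyme markers, of cells that can also make VCAN and HAS2, were above the floor for 8 of 8 on the NE array, 2 of 8 on the RA array (COL1A2 and PRRX1) and 4 of 8 on the FGF8 array, with summed signals of 9116, 153 and 790. By their main probe sets COL1A1, COL3A1, DCN and LUM lay at the floor on both astrocyte arrays. Of the 8, 0 were at least 2-fold higher and 6 lower than NE with RA, and 1 higher and 6 lower with FGF8. The marker higher with FGF8 was PRRX1, at 61.4 on the NE array, 48.4 on the RA array and 304 on the FGF8 array. HAS2 was also highest on the FGF8 array, but it was lowest on the NE array, where the summed signal of these markers was highest. TWIST1 read 32.4 on the NE array, lay at the floor on the RA array and read 36.8 on the FGF8 array. Chondrocyte markers, which accompany ACAN and HAPLN1, were above the floor for 4, 3 and 3 of 7, with sums of 5055, 1721 and 2234 and with MATN1, COMP and CHAD at the floor on all 3 arrays. Oligodendrocyte lineage markers, which accompany NCAN, BCAN and TNR, were above the floor for 5, 4 and 3 of 7, with sums of 403, 1082 and 6451. Most of the FGF8 sum was PDGFRA, at 5997 against 173 on the NE array and 794 on the RA array, while SOX10, GPR17 and MOG lay at the floor on both astrocyte arrays. Neuronal markers were above the floor for 8, 6 and 6 of 8, with sums of 17237, 14618 and 20699. Of the 8, 1 was higher and 4 lower than NE with RA, and 2 higher and 1 lower with FGF8. DCX read 2058, 583 and 6738 and was highest with FGF8, SYT1 read 631, 2060 and 405 and was highest with RA, and STMN2 read 2238 on the NE array and 153 on the RA array and lay at the floor on the FGF8 array. Microglial markers, of cells that also carry CD44, were above the floor for 0, 1 and 1 of 7, and endothelial markers for 3, 0 and 1 of 6. The part of these cell types in the results was not tested.

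By the smallest distance over the log2 differences RA minus NE and FGF8 minus NE, among 10309 other genes above the floor on all 3 arrays, the genes most like CD44 were A2M, a protease inhibitor, at a distance of 0.88, the adhesion molecule CHL1 at 1.17 and the homeodomain-only protein HOPX at 1.23. A2M was 135-fold higher with RA and 113-fold with FGF8. Nearest to NCAN were MYO5B, an unconventional myosin, at 0.49, the vesicular GABA transporter SLC32A1 at 0.76 and C11orf96 at 1.01. MYO5B differed from NE by 1.38-fold with RA and 18.7-fold with FGF8. On the NE array CHL1 read 30.2, HOPX 36.4 and SLC32A1 27.1, all near the floor. Genes at the floor on the NE array could not enter the search. AQP4, with log2 bounds of at least 7.29 for RA and at least 7.27 for FGF8, is such a gene. These distances cover 3 arrays of 1 line that share the NE array.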

How the data were processed

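The labels' protocols describe Trizol extraction with a column cleanup and biotin labelling by the manufacturer's procedure at a core facility. Each of 54675 probe sets has a deposited intensity on each of the 3 arrays; the mean without the lowest and highest 2% is about 150.0 on each, so the authors or the facility scaled them. The sources used here do not name the method that turned probes into signals. The 54613 non-control probe sets were quantile normalized and brought to log2, since the 75th percentiles of the deposited values differed by 0.14 log2 units. Values below the floor, the 50th percentile, were raised to it. Genes were named from the 41091 probe sets with 1 symbol in the platform annotation, of which 41037 matched RefSeq by gene identifier and 0 changed symbol. With 1 array per group no test was possible, and genes were counted at 2-fold.

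The members and all lists were chosen with earlier results of these data known. Named genes are all members, up to 4 per direction of each related list with the largest differences past 2-fold, and the 3 genes nearest to CD44, NCAN and HAPLN1; those of HAPLN1 are not given, since the floor sets both its differences. The alternatives tried were no normalization, array medians set equal, a floor at the 30th or the 70th percentile, no floor, averaging a gene's probe sets, leaving out _x_at and _s_at probe sets, and thresholds of 1.5-fold and 4-fold. Python 3.11.15, numpy 2.4.6, pandas 2.3.3 and matplotlib 3.10.9 were used, and the counting was tested on simulated data.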

Additional observations from a re-analysis of the deposited data

Results flagged for a closer look

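HAS3 moved in opposite directions from the same NE array. Its main probe set was 5.34 log2 units above NE with RA and -1.12 with FGF8, the second value close to the floor. How far these values differ was not tested, since each group rests on 1 array. The other HAS3 probe set was at the floor on both astrocyte arrays.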

How the results depend on the processing

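No paired analysis was possible because each group has 1 array. Over 171 values of single members under 7 alternatives of scaling, floor and probe set, 160 stayed on the same side of 2-fold, 2 of them with the sign turned (TNC for RA minus FGF8, without normalization and with array medians set equal), 5 came under 2-fold, 6 came past it and 0 reversed past 2-fold. With the floor at the 70th percentile, the members lower than NE were 0 for RA (1 as reported) and 1 for FGF8 (3 as reported): HAPLN1 then has a bound of 1.67-fold, and HAS3 lies at the floor on both arrays of the FGF8 comparison. With a 4-fold threshold 1 member was lower for FGF8. The count of members lower for RA was 2 when a gene's probe sets were averaged and 2 at 1.5-fold, as VCAN joined HAPLN1. The count lower with RA than with FGF8 was 2 without a floor, where TNR values below the floor were compared, and 2 at 1.5-fold, where HAS2 joined NCAN. The other counts stayed within 1.5 times those reported. VCAN has no probe set outside the _s_at and _x_at types and so no value without them. The floor hides differences among dim probe sets: HAPLN1 on the astrocyte arrays and TNR on every array have only a bound or no value.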
